A study of Mus musculus with 26 samples.

Results

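Pou5f1, Sox2 and Nanog are the core transcription factors of the pluripotent state, and the positions of these 3 genes among the chromatin domains of mouse embryonic stem cells are described here. They were given by name, without use of a measured value, although earlier results of these data were known. The 3 genes were found by symbol in the RefSeq annotation of GRCm38.p6. They are 3 of 21521 protein-coding genes on the 20 chromosomes that carry boundaries. Micro-C, a chromosome conformation assay that cuts chromatin with micrococcal nuclease, was applied by the authors to 26 G1 libraries in 5 groups. The cells were RAD21-dTAG cells (Bruce-4 derived, genotype C57BL/6J), in which the cohesin subunit RAD21 carries a degradable tag, in the DMSO controls too. ESCs received 500 nM dTAG (6 libraries), 20 µM A485 (6 libraries) or 0.05% v/v DMSO (6 libraries), and EpiLCs (epiblast-like cells) received dTAG (4 libraries) or DMSO (4 libraries).

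The values below come from the DMSO-treated ESCs alone, which were grown in serum/2i/LIF medium. Their 6 libraries were pooled by the authors into a single list of 3515 boundaries, each an interval of 25 kb, on chromosomes 1 to 19 and X. The chromosome between 2 adjacent intervals is called a domain, of which there are 3495. The list has no score and no value per library, so no distance or length has a replicate error, and no test was made. The number of contacts behind a boundary is unknown. Expression was not analysed here, so the label ESC was not checked against expressed markers.

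OCT4 (encoded by Pou5f1), SOX2 and NANOG bind many enhancers together and sustain each other's transcription. OCT4 has a POU domain that reads an octamer, SOX2 an HMG box that reads a short A/T-rich element, and NANOG a homeodomain, and OCT4 and SOX2 often sit side by side on a composite element. Chromatin domains form as cohesin extrudes loops until it meets barriers, of which CTCF is the best known, and contacts are more frequent within a domain than across its boundaries. Sox2 is known to be driven in ESCs by an enhancer cluster far downstream, and Nanog and Pou5f1 by enhancers that include nearby upstream ones. The positions of these enhancers are not in the files used here and they were not placed.

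The start windows of the 3 genes are shown because the distance from each start to the boundaries is the measurement reported below. All 3 genes are transcribed along the plus strand. The windows are those of RefSeq on GRCm38.p6, run from 250 bases before a start to 50 bases after it, and lie at chr17:35505782-35506081 (Pou5f1), chr3:34649745-34650044 (Sox2) and chr6:122707239-122707538 (Nanog). Capitals mark matches, on either strand, to the octamer ATGCAAAT or its shorter form ATGCAAA, the Sox element CATTGT, the GC box GGGCGG, the TATA box TATAAA and the CTCF core CNAGGGGGC or CNAGGTGGC.
Pou5f1: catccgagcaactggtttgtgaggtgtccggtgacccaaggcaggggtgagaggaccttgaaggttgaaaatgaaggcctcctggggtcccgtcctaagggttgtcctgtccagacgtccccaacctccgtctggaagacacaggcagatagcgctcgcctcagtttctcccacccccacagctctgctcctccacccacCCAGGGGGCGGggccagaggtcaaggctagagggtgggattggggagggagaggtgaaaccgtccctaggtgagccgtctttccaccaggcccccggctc
Sox2: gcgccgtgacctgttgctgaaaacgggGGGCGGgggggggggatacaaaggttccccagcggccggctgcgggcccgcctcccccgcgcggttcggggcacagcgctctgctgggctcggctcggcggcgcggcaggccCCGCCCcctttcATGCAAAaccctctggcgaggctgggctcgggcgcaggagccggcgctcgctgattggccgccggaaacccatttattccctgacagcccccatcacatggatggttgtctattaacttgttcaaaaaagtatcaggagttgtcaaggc
Nanog: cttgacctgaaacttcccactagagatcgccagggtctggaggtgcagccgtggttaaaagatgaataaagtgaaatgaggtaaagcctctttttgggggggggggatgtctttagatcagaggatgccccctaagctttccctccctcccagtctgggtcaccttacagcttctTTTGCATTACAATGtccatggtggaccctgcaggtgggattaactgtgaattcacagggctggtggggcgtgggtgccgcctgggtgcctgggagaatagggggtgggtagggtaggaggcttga

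In the Nanog window the capitals at positions 176 to 189, counted from 1 at the 5′ end, are a Sox element and a short octamer 1 base apart, read on the minus strand. A Sox element followed within 2 bases by the short octamer was found in 3 of 32851 RefSeq start windows, or 0.00913%. The windows of both annotated Nanog starts are 2 of those 3 and contain the same match at the same place in the genome, and the remaining window belongs to Acyp1. By gene, this is 2 of 27025 genes. The Sox2 window has the short octamer at positions 152 to 158, an arrangement of letters that 4.63% of windows hold, and 2 GC boxes. At least 1 GC box is found in 35.7% of windows. The Pou5f1 window has a GC box that overlaps a CTCF core at positions 201 to 209. The GGGGG form of that core was in 2.75% of windows, and either form in 4.14%. None of the 5 windows of the core factors has the full octamer or a TATA box, found in 1.74% and 13.6% of all windows. These matches are exact letters within 300 bases and say nothing of binding.

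The 3 genes lay in domains of unequal size and company. Sox2 was the only protein-coding gene of a 175 kb domain, Pou5f1 was 1 of 21 in 450 kb, and Nanog was 1 of 12 in 575 kb. All 3 had both ends inside a domain and none had an end within 10 kb of a boundary. Of all 21521 protein-coding genes, 18.3% had an end inside a boundary or within 10 kb of it, and 11.7% had an end inside 1. With a window of 25 or 50 kb, Sox2 alone of the 3 was near, beside 25.9% and 35.6% of all genes. With 100 kb, Sox2 and Pou5f1 were near, beside 50.3% of all genes. Counts out of 3 genes are given as a description.

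**Figure D1:**
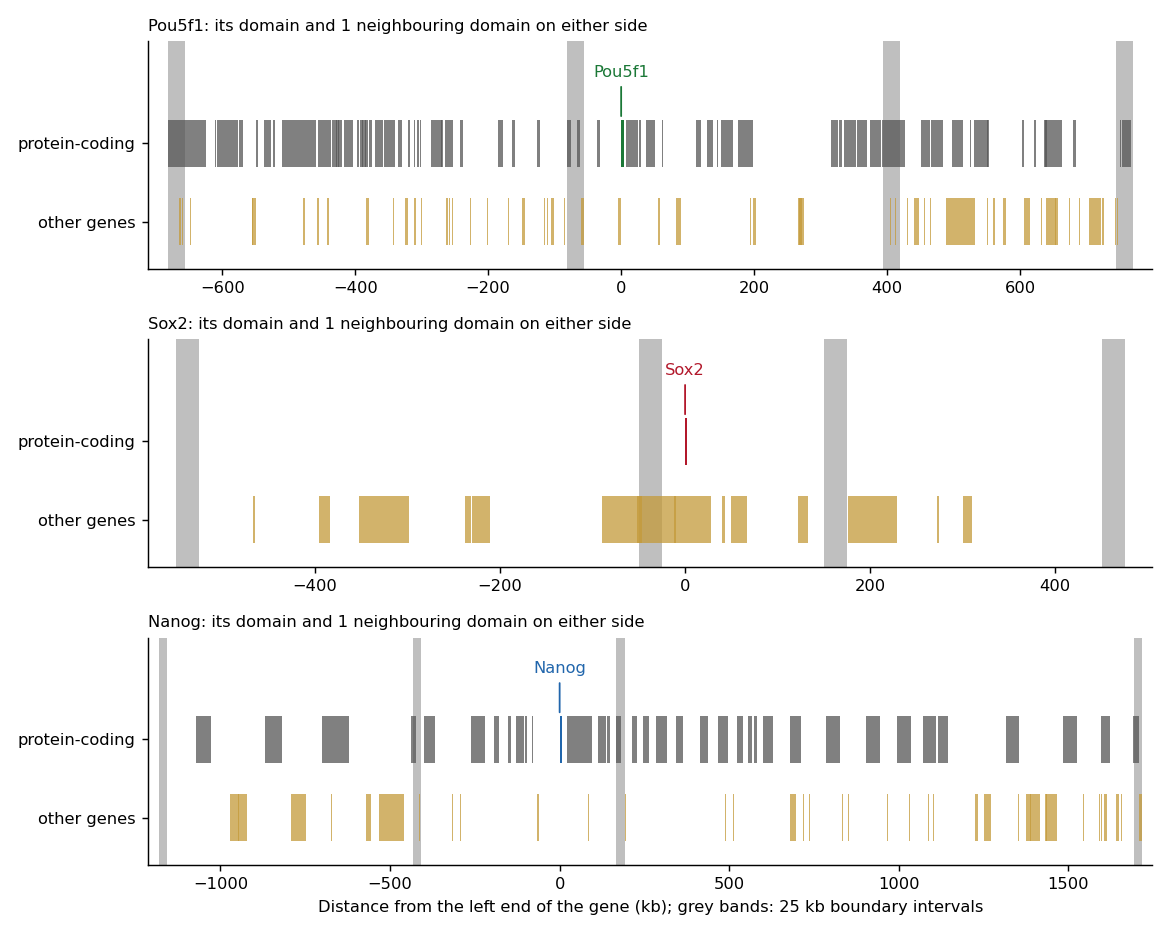
Maps of the Pou5f1, Sox2 and Nanog loci, with distance from the left end of each gene in kb on the x axis and 1 neighbouring domain on either side. Grey bands are 25 kb boundary intervals, the upper row protein-coding genes (the core factor in colour) and the lower row all other annotated genes. Sox2 stands alone in the upper row, whereas Pou5f1 and Nanog share their domains with 20 and 11 other protein-coding genes.

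Sox2 lay at chr3:34649995-34652461, 24.995 kb to the right of its left boundary (chr3:34600001-34625000) and 147.5 kb to the left of the right boundary (chr3:34800001-34825000). Its left end is its start site, and it lies 5 bases short of the width of 1 boundary interval from the left boundary. The midpoint of the gene was 15.0% along the domain. Of all protein-coding genes, 25.9% had an end nearer to a boundary than Sox2.

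The Sox2 domain was among the shortest in the list. Of 3495 domains, 64 (1.83%) were shorter, 125 had the same length, and 5.41% measured at most 175 kb. On chromosome 3 only 2 of 209 domains were shorter, those of Car1 (125 kb), which encodes a carbonic anhydrase, and Igsf3 (150 kb), and each of these also held 1 protein-coding gene. Domains with exactly 1 protein-coding gene made up 21.9% of all domains, and 44 of the 125 domains of 175 kb were of this kind. Counted by gene, 3.87% of the 19750 protein-coding genes with a domain were alone in it.

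The surroundings of Sox2 held no other protein-coding gene over a long distance. The nearest on the left was Dnajc19, which encodes a mitochondrial import protein, 568.6 kb away, and on the right Atp11b, a phospholipid-transporting ATPase gene, 1101.6 kb away. The gap to the nearest protein-coding neighbour was larger for only 113 of 21521 genes (0.525%), and its median over all genes was 5.13 kb. The stretch between Dnajc19 and Atp11b measured 1672.7 kb and was divided by 5 boundaries, 2.99 per Mb, where the genome had 1.37 per Mb. Within 1 Mb on either side of Sox2 there were 2.5 boundaries per Mb, against 1.34 on chromosome 3 as a whole.

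Sox2 sat in a run of domains that were empty of other protein-coding genes. The left neighbouring domain (475 kb) held 5 lncRNA genes and 1 pseudogene. The right neighbouring domain (275 kb) held 2 lncRNA genes and the miRNA gene Mir6378. The next domain on the right (525 kb) held 4 lncRNA genes and 2 pseudogenes, so 4 domains in a row, 1525 kb from chr3:34125001 to chr3:35650000, contained Sox2 and no other protein-coding gene. Only the next domain on the left (300 kb) had others, namely Ttc14, Ccdc39, Fxr1 and Dnajc19.

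This arrangement was rare in the list. Of 3455 domains with a neighbour on both sides, 14 (0.405%) held 1 gene midpoint between 2 domains with none. In 12 of these 14 the gene was 153 kb or longer, up to 1554 kb for Pcdh15, which is longer than its domain. Sox2 (2.47 kb) and Pabpc6 (3.21 kb) were the 2 short ones. When any base of a gene was counted, and the flanking boundaries as well, a count chosen after the values were seen, 3 domains qualified: those of Sox2, Csmd3 and Cdh2. The Sox2 domain was the shortest of these 3, at 175 kb, beside 2275 kb for Csmd3 and 250 kb for Cdh2.

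Non-coding genes were the only company of Sox2. Its domain held, besides Sox2, the lncRNA genes Gm34941, Gm3143 and Gm38509 at 36.9, 47.2 and 119.6 kb to the right and the miRNA gene Mir1897 at 11.5 kb to the left. The lncRNA gene Sox2ot, whose name stands for Sox2 overlapping transcript, covered Sox2 entirely. It spanned 117.6 kb, of which 39.6 kb lay to the left of the left boundary, 25 kb across that boundary and 53.0 kb inside the Sox2 domain. Boundaries crossed from side to side by a lncRNA gene were few, at 66 of 3515 (1.88%), whereas a protein-coding gene did so at 22.1%.

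Neither boundary of the Sox2 domain was touched by a protein-coding gene. The right interval contained no annotated gene at all. The left interval contained Sox2ot and the left-pointing lncRNA gene Gm42205. The start of Gm42205, at 34603000, was the only start with a start window in the pair. Its window, chr3:34602951-34603250 on the minus strand, is shown because it is the annotated start nearest to Sox2 inside a boundary. Capitals mark 2 Sox elements, 1 on either strand, which 12.6% of all windows hold at least once.
Gm42205: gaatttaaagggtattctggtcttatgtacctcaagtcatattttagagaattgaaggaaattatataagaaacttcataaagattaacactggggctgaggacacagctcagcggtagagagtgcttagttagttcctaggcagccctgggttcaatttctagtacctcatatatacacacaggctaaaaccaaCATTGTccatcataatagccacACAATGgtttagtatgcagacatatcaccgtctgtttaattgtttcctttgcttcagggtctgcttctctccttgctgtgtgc

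Pou5f1 lay at chr17:35506032-35510777, 56.0 kb to the right of its left boundary (chr17:35425001-35450000) and 389.2 kb from the right boundary (chr17:35900001-35925000). A second annotated start lay 58.8 kb from the left boundary. As with Sox2, the start was the end nearer to a boundary, and the midpoint was 13.0% along the domain. Of all protein-coding genes, 37.7% had an end nearer to a boundary.

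The Pou5f1 domain was of ordinary length among all domains, and crowded. At 450 kb it was longer than 42.5% of domains, close to the median of 500 kb. Its 21 protein-coding genes, 4.67 per 100 kb, put it above 98.2% of domains in density, and 4.75% of domains held 21 or more. Over all domains there were 0.807 per 100 kb. Counted over protein-coding genes with a domain, the median domain length was 675 kb and the median number of protein-coding genes in it 12. Tcf19, which encodes a PHD-finger protein, had its nearer end 1.95 kb beyond Pou5f1. The left end of the domain held H2-Q10, an MHC class I gene, 31.5 kb to the left of Pou5f1. It also held the lncRNA gene Gm32362, whose right end lay 0.295 kb before Pou5f1.

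The protein-coding genes of the domain fell into 2 groups separated by 117 kb without one, between Ddr1 and Ier3. The first group had 13 genes from H2-Q10 to Ddr1, Pou5f1 included. Among them were Cchcr1, Cdsn (corneodesmosin of the skin's outer layer), Vars2 (the mitochondrial valyl-tRNA synthetase), Gtf2h4 (a subunit of the general transcription factor TFIIH) and Ddr1 (a collagen receptor kinase). The second had 8, among them the immediate early gene Ier3, Flot1, the β-tubulin gene Tubb5, the DNA damage gene Mdc1 and the RNA helicase gene Dhx16. The right ends of Dhx16 and 2310061I04Rik lay 7.33 and 2.62 kb from the right boundary. The domain also held 5 lncRNA genes, 1 pseudogene and 1 snRNA gene.

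Both boundaries of the Pou5f1 domain fell on protein-coding genes. The left interval held H2-Q7 whole, with its start, and part of H2-Q6. H2-Q genes encode MHC class I molecules. The right interval held Mrps18b, a mitochondrial ribosomal protein gene, whole. It also took in parts of Atat1, which encodes the α-tubulin acetyltransferase, and of Ppp1r10, a regulatory subunit gene of protein phosphatase 1. Start windows place 6 starts in it, of Atat1, Gm16279, Mrps18b and Ppp1r10. The H2-Q7 window, chr17:35438905-35439204 on the plus strand, is the sole start window in the boundary nearer to Pou5f1. It has none of the motifs searched, so it is without capitals.
H2-Q7: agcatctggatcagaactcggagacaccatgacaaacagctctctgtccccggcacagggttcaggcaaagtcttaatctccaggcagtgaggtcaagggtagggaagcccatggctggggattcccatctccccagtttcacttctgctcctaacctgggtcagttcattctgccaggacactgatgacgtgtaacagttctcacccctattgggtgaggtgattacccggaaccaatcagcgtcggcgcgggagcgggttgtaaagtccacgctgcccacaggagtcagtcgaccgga

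The neighbours of the Pou5f1 domain belong to the major histocompatibility complex. The left domain (575 kb) held 44 protein-coding genes, 7.65 per 100 kb, including the cytokine genes Tnf, Lta and Ltb, the complement genes C2 and Cfb, 3 Hspa1 heat shock genes, 6 Ly6 genes and 4 H2 genes (H2-D1, H2-Q1, H2-Q2 and H2-Q4). The right domain (325 kb) held 13, among them H2-T22, H2-T23, H2-T24 and H2-T3, together with Abcf1, Prr3 and Gnl1 and 15 pseudogenes. These 3 domains together held 78 protein-coding genes in 1350 kb, beside 1 in 925 kb for Sox2 and its neighbours and 34 in 2800 kb for Nanog and its neighbours.

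**Figure D2:**
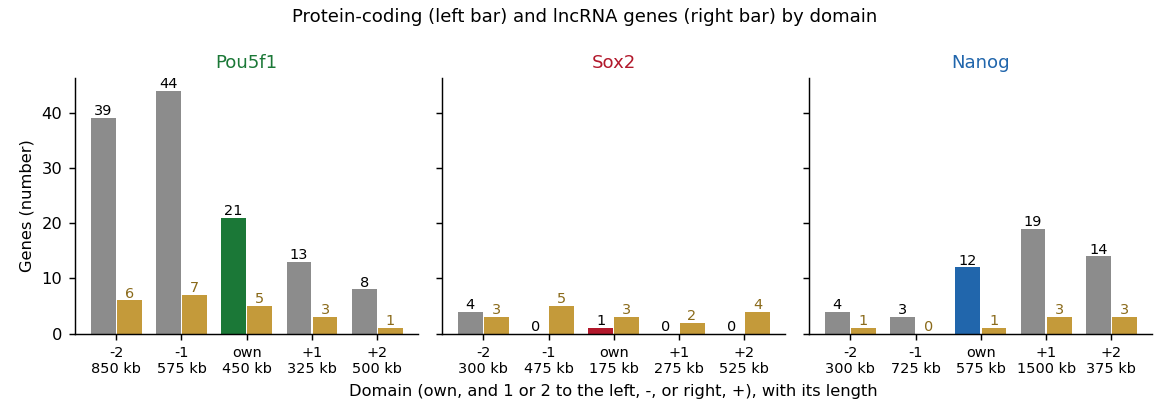
Numbers of protein-coding genes (left bar of each pair) and lncRNA genes (right bar) in the domain of each core factor and in 2 domains on either side, with domain lengths under the axis. Protein-coding genes number 8 to 44 in the 5 domains around Pou5f1, 0 to 4 around Sox2 and 3 to 19 around Nanog.

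Nanog lay at chr6:122707489-122714633, deeper in its domain than the other 2. It was 407.5 kb to the right of the left boundary (chr6:122275001-122300000) and 160.4 kb to the left of the right boundary (chr6:122875001-122900000), and its midpoint was 71.5% along the domain. Here the far end of the gene, not the start, faced the nearer boundary, and the 2 annotated starts were 167.5 and 167.4 kb from it. Of all protein-coding genes, 63.9% had an end nearer to a boundary than Nanog.

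The 575 kb Nanog domain was longer than 56.7% of domains. Its 12 protein-coding genes, 2.09 per 100 kb, put it above 86.7% of domains in density, and 12.5% of domains held 12 or more. Counted over protein-coding genes with a domain, however, the median number in the gene's own domain was also 12. The median length of that domain was 675 kb. The nearest protein-coding gene was Slc2a3, which encodes the glucose transporter GLUT3. Its nearer end lay 13.2 kb to the right of Nanog. On the left came Dppa3 (Stella, a protein of the early embryo and germ line) at 77.2 kb and Gdf3 (a ligand of the TGF-β superfamily) at 97.4 kb, which are themselves genes of the pluripotency network. Farther left were the RNA-editing deaminase gene Apobec1 at 104.5 kb, then Mfap5, Rimklb, the Polycomb gene Phc1 at 367.3 kb and M6pr, the receptor gene for mannose 6-phosphate, at 389.8 kb. Foxj2 and the complement receptor gene C3ar1 lay at 105.6 and 132.5 kb to the right. The domain also held 7 pseudogenes, 2 of them (Gm10224 and Gm10420) within 10.6 kb of Nanog.

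Each boundary of the Nanog domain was touched by 1 protein-coding gene, and no start window had its start in either. Genes without a start window were not counted, such as the transcribed pseudogene Gm6637, which lies whole in the left interval. The left interval cut Klrg1, a receptor gene of natural killer and T cells. The right interval took in nearly all of Necap1, an endocytosis gene. Across the left boundary lay a 725 kb domain with 3 protein-coding genes, the protease inhibitor gene A2m and its relatives Mug1 and Mug2, and 9 pseudogenes. Across the right boundary lay a 1500 kb domain of 19, of which 9 were Clec4 lectin receptor genes and 9 Vmn2r vomeronasal receptor genes, followed by the scavenger receptor gene Cd163. Within 1 Mb on either side of Nanog there was 1 boundary per Mb, against 2 around Pou5f1, but within 500 kb both had 2 per Mb. Chromosome 6 had 1.45 and chromosome 17 had 1.34.

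**Figure D3:**
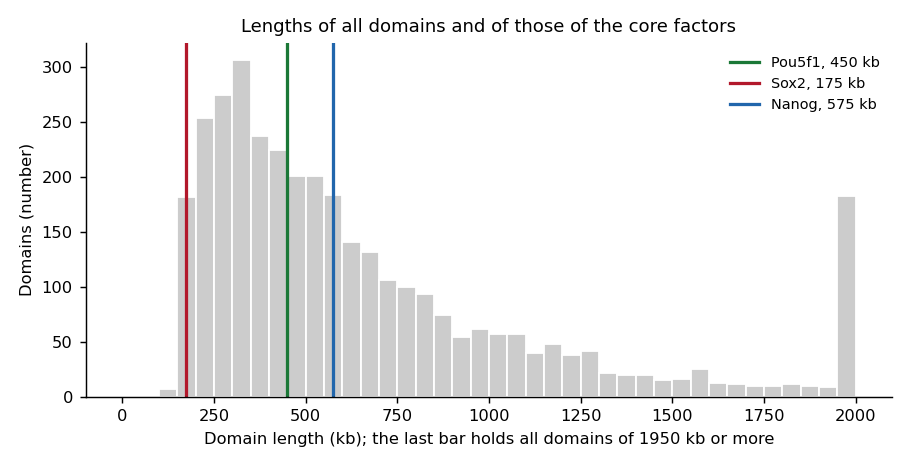
Histogram of the lengths of all 3495 domains (x axis in kb, y axis number of domains, the last bar collecting all longer domains), with a line for each core factor. The Sox2 domain, at 175 kb, stands at the short end. Those of Pou5f1 (450 kb) and Nanog (575 kb) lie on either side of the median over all domains, 500 kb.

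Of the 6 boundaries that flank the 3 domains, 4 were touched by a protein-coding gene, beside 70.4% of the other 3509 boundaries. The 2 that were not are those of Sox2. A start with a start window lay inside 3 of the 6, beside 35.0% of all boundaries. Both counts leave out genes without such a window.

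The wider pluripotency network was a list of 32 other genes named from general knowledge, with earlier results of these data known. All 32 had their midpoint inside a domain, as did 19750 of all 21521 protein-coding genes. Of the 32 network genes, 3 had an end within 10 kb of a boundary (9.38%), beside 0 of the 3 core factors and 18.3% of all protein-coding genes. Rif1 (a telomere and replication timing factor) and Tet1 (a DNA demethylation enzyme) had an end inside a boundary, and L1td1 lay 1.75 kb from 1. The median distance was 56.0 kb over the core factors, 88.7 kb over the network and 98.9 kb over all protein-coding genes. In order of distance, 5 network genes were nearer to a boundary than Sox2, 16 lay between Sox2 and Nanog, and 11 were farther than Nanog, up to Stat3 at 561.8 kb.

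Network genes alone in their domain included Tbx3 (950 kb) and Nr5a2 (450 kb), with 111.8 and 212.2 kb to their nearest protein-coding neighbour, beside 568.6 kb for Sox2. L1td1 had a domain as short as that of Sox2, at 175 kb, but with 2 protein-coding genes. At the crowded end, the domains of Sox15 (66 genes), Stat3 (56) and Tdgf1 (31) held more than the 21 of Pou5f1. Only 2 network genes, Dppa3 and Gdf3, shared a domain with a core factor, both with Nanog. Dppa2 and Dppa4 shared a domain with each other.

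**Figure D4:**
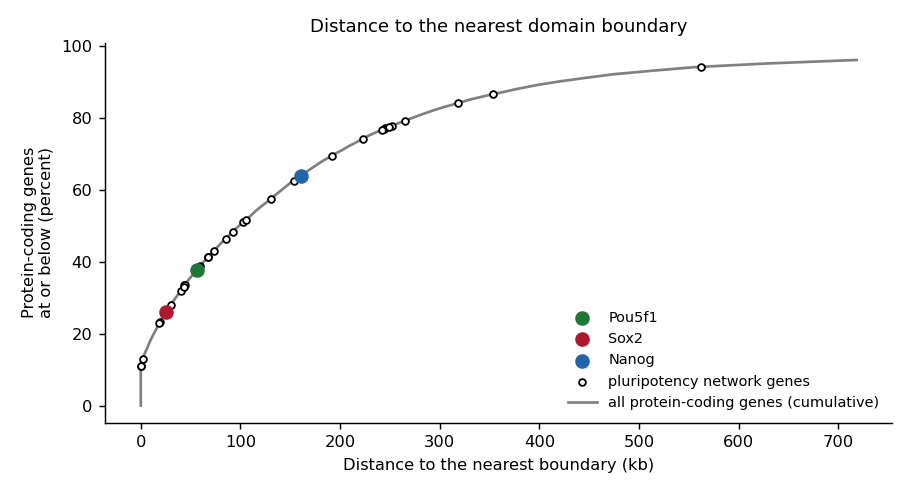
Distance to the nearest boundary (x axis, kb) for Pou5f1, Sox2 and Nanog (coloured), the 32 network genes (open circles) and all protein-coding genes (curve, cumulative percent on the y axis). Sox2 was at 24.995 kb, Pou5f1 at 56.0 kb and Nanog at 160.4 kb. Of the 32 network genes, 16 lay between Sox2 and Nanog, 5 were nearer than Sox2 and 11 were farther than Nanog.

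Within their gene families, Sox2 and Pou5f1 had domains toward opposite ends of crowding. Sox genes encode HMG box factors, and 18 of the 19 had a domain, since the midpoint of Sox10 fell in a boundary. The Sox2 domain was the shortest of these 18. The other 17 measured 225 to 4275 kb, with a median of 625 kb. Sox2, Sox5, Sox6, Sox9, Sox14 and Sox17 were alone in their domains, 6 of 18 beside 3.87% of the protein-coding genes with a domain. Sox9, which drives cartilage and testis development, had 457.1 kb to its nearest protein-coding neighbour and Sox11 had 854.4 kb, beside 568.6 kb for Sox2. Sox1 and Sox3, the closest relatives of Sox2, lay 175.4 and 231.6 kb from a boundary in domains of 600 and 625 kb with 2 protein-coding genes each.

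Pou genes encode POU domain factors, and 14 of the 15 had a domain, since the midpoint of Pou3f2 fell in a boundary. The 21 genes of the Pou5f1 domain were exceeded only by the 39 around Pou2f2, and the median over the other 13 was 4. Their domains measured 325 to 3600 kb (median 725 kb), against 450 kb for Pou5f1. Pou3f1 and Pou3f3, which act in neural development, were alone in domains of 725 and 1975 kb. Pou5f2, the gene nearest to Pou5f1 in name, was in a 1450 kb domain of 5.

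**Figure D5:**
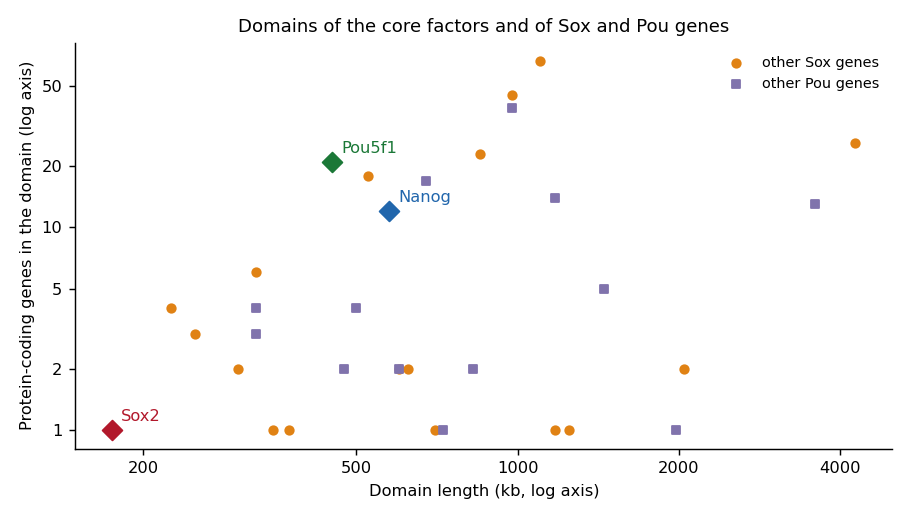
Domain length (x axis, kb, log axis) against the number of protein-coding genes in the domain (y axis, log axis) for Pou5f1, Sox2 and Nanog (diamonds) and for the other Sox (circles) and Pou genes (squares) that lie in a domain. Sox2 stands at the lower left with 1 gene in 175 kb, and Pou5f1, with 21 genes, lies above all other Pou genes but Pou2f2.

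Genes most like each core factor were sought among those with a domain within 25 kb of the same length and the same number of protein-coding genes (within 10% for numbers over 5). They were ordered by how close their distance to a boundary was. For Sox2 there were 101 candidates, and the closest were Trak1 (24.9 kb), Cd2ap (26.1 kb) and Col24a1 (23.0 kb), each alone in 175 kb. For Pou5f1 there were 85, led by Ccdc166 and Spatc1 (54.9 and 57.4 kb, with 22 genes in 425 kb) and Ptgdr2 (57.5 kb, with 20 genes in 475 kb). For Nanog there were 177, led by Nemf, Ddx47 and 1700017B05Rik at 161.5, 161.6 and 162.4 kb in domains of 550 kb. The measure uses 3 values per gene from 1 pooled list.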

How the data were processed

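The authors deposited 1 list of boundary positions (chromosome, start, end), made from the 6 DMSO-treated ESC Micro-C libraries after pooling. Per the submitters' processing notes, BWA 0.7.17 and Juicer 1.22.01 were used on mm10. How the boundaries were called was not given in the sources used here. The other 4 groups were not analysed here. In 3 libraries each of the dTAG and A485 ESC groups the growth protocol mentions EpiLC differentiation although the cell type reads ESC.

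Positions are printed counted from 1. Gene positions are those of RefSeq on GRCm38.p6, the build also called mm10. Genes listed out of order after a chromosome's sorted run (345, of which 110 are protein-coding) were taken to lie on other scaffolds and left out, so 49209 were used. A gene belongs to the domain that holds its midpoint. Distances run from the nearer gene end to the edge of the boundary interval, and are 0 where an end lies inside. Start sites and strands come from 32851 RefSeq promoter windows (called start windows above) of 27025 genes. A gene without a window has no start counted. Motifs were matched exactly on both strands.

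The core factors and lists were chosen with earlier results of these data known. Every protein-coding gene of the loci, the list genes and the 3 genes most like each core factor could be named, as could other genes that touch a core factor or a boundary or have a name other than a Gm, LOC or Rik symbol. Acyp1, Pabpc6, Pcdh15, Csmd3, Cdh2, Car1, Igsf3, Atp11b, the Gm lncRNA genes and pseudogenes of the domains and the genes of domains 2 steps away were named after their values were seen. Values of 2 genes are not reported here. The functions were tested on simulated data. Python 3.11.15, numpy 2.4.6, pandas 2.3.3 and matplotlib 3.10.9 were used.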

Additional observations from a re-analysis of the deposited data

How the results depend on the processing

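No paired analysis was possible because the 6 libraries were pooled by the authors into 1 list, which also means that no replicate could be left out. For 19 values, 64 alternatives were run, and 37 changed a value by less than 25 kb (distances and lengths) or by at most 1.5 times (counts, percents and densities). With lengths taken between boundary centres, the domains of Pou5f1, Sox2 and Nanog measured 475, 200 and 600 kb, 25 kb more by construction. Leaving out the left flanking boundary merged them into 1050, 675 and 1325 kb, and leaving out the right one into 800, 475 and 2100 kb. The Pou5f1 domain then held 67 protein-coding genes (left) or 37 (right) and the Nanog domain 32 (right), whereas Sox2 stayed alone in both. Moving the nearest boundary by 1 interval, an alternative chosen after seeing the data, put Pou5f1 31.0 or 81.0 kb away and Nanog 135.4 or 185.4 kb (nearer or farther), and at 31.0 kb Pou5f1 too is within 50 kb. The Sox2 start then fell inside the boundary (distance 0) or 49.995 kb from it. Of the domains of chromosome 3 alone, 0.957% were shorter than that of Sox2. Within 500 kb there were 2 boundaries per Mb around Nanog. Of the 3 core factors, 1 was near a boundary with windows of 25 and 50 kb and 2 with 100 kb. Of 32 network genes, 10 were near with 50 kb, and 1 with 10 kb by gene midpoint. Of 19 Sox genes, 1 was near with no window, 3 with 10 kb and 5 with 50 kb. Of 15 Pou genes, 1 was near with 10 kb and 3 with 50 kb. Over all protein-coding genes the shares were 11.7% with no window, 18.3% with 10 kb, 25.9% with 25 kb, 35.6% with 50 kb and 50.3% with 100 kb. No such share was computed by gene midpoint. A distance below the 25 kb width of an interval is not resolved, and contact depth is unknown.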

Other observations

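The domains 2 steps from Pou5f1 were also part of the major histocompatibility complex. On the left, an 850 kb domain held 39 protein-coding genes, 11 of them with an H2 symbol, such as the class II genes H2-Aa, H2-Ab1 and H2-Eb1, and the antigen processing genes Tap1, Tap2, Psmb8 and Psmb9. On the right, all 8 protein-coding genes of a 500 kb domain were H2-M genes. To the right of Nanog, 2 domains away, a 375 kb domain held 14 protein-coding genes, among them the complement protease genes C1ra and C1s1, the enolase gene Eno2 and the phosphatase gene Ptpn6.

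Motifs in the start windows of the network genes were counted beside those of the core factors. Windows were found for 3 of 3 core factors and 20 of 32 network genes. The short octamer was present in 2 core factors (Sox2 and Nanog), in 1 of 20 network genes (Zfp42) and in 5.24% of 27025 genes. The Sox element was present in 2 core factors (Pou5f1, at its second start, and Nanog), in 2 of 20 network genes (Esrrb and Lin28a) and in 14.3% of all genes. The GC box was present in Pou5f1 and Sox2, in 14 of 20 network genes and in 38.2% of all genes. These counts are descriptions of letters and were not tested.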
